A study of Mus musculus with 6 samples.

Results

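Genes of iron uptake, storage and sensing were examined in Ter119-positive bone marrow cells of wild type mice and of mice with a conditional knockout of mDia2. The 10 genes were the transferrin receptors Tfrc and Tfr2, the endosomal iron genes Steap3 and Slc11a2, the ferritin subunits Fth1 and Ftl1, the iron regulatory proteins Aco1 and Ireb2, and the mitochondrial genes Glrx5 and Abcb10. Members were all probes whose symbol in the annotated table equals 1 of these names, which gave 16 of the 45281 probes on the array, for 9 of the 10 genes among 30833 symbols. Tfr2 is listed there as Trfr2, a synonym in the RefSeq gene table, with 2 probes, and 1 further probe carries the Steap3 synonym 1010001D01Rik. These 3 are described beside the 16 and are counted only where stated.

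Each group held 3 C57BL/6 mice aged 4 months, with 1 array per mouse. One group was labelled wild type and the other carried the mDia2 knockout, which the series describes as conditional. mDia2 is a formin encoded by Diaph3, a protein that nucleates and elongates actin filaments. The floxed allele, the Cre line and the cells it acts in are not given in the sources used here, nor is whether the wild type mice carried a floxed allele or Cre. The surface antigen Ter119 is carried by erythroblasts and by later red cells, so the fraction spans several stages of maturation.

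Developing red cells take up more iron than other cells, nearly all of it for heme. Transferrin-bound iron enters through the transferrin receptor, is reduced in the endosome and leaves it through a divalent metal transporter, after which it is used in the mitochondrion or stored in the ferritin shell. When iron is scarce, the iron regulatory proteins bind hairpins called iron-responsive elements, which protects the Tfrc transcript from decay and blocks translation of the ferritin transcripts. An array reads transcripts, so of these responses it can show the first and not the second.

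The arrays detected between 14815 and 16951 probes. The targeted gene, listed as Diap3, had signals of 1045, 965 and 969 in wild type and 574, 341 and 486 in knockout mice at its brighter probe (limma adjusted p = 0.0917). All 12 erythroid markers checked were detected, among them Hbb-b1 and Slc4a1, and their summed signal ran from 152425 to 167168 in wild type and from 166594 to 171050 in knockout mice. Markers of other blood cells were present too. Their summed signals were lower in the knockout mice with no overlap, except those of monocyte and macrophage markers, where the groups overlapped. The summed signal of 13 neutrophil markers ran from 37133 to 51116 in wild type and from 14965 to 26614 in knockout mice, that of 15 monocyte and macrophage markers from 9371 to 21033 and from 4008 to 9925, that of 10 megakaryocyte markers from 2069 to 3032 and from 1635 to 1706, and that of 8 B lineage markers from 1167 to 1335 and from 916 to 945. In these lists 12 of 12, 15 of 15, 9 of 9 and 5 of 5 tested markers lay below 0, beside 81.0% of all tested probes. In limma 0, 0, 0 and 1 of them had an adjusted p under 0.05, beside 0.0889% of all tested probes. The groups did not overlap, as lower, for 12, 2, 9 and 4 of them, beside 23.0% of all tested probes. The only marker undetected on every array was the B cell factor Pax5. The part of these other cells in the iron gene values below was not tested. In sorted fractions fewer cells of a type and less RNA per cell cannot be told apart.

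None of the tested member genes passed the test between the genotypes. Of the 16 probes, 14 were detected well enough to be tested, in 8 genes. In limma 0 of these 14 had an adjusted p under 0.05, beside 0.0889% of all 15743 tested probes, and 1 of 14, as higher, had an unadjusted p under 0.05, beside 1.28% of all probes. The adjusted p-values ran from 0.258 to 0.952, and with Trfr2 included the count was 0 of 16. Over the 8 genes, each at its brightest probe, the log2 change of knockout against wild type had a median of 0.02, against -0.10 over all tested probes. Among the 14 probes 9 lay above 0 and 5 below, where 19.0% and 81.0% of all tested probes did. The erythroid markers lay likewise, with 8 of 12 above 0 and a median of 0.07, so this is not particular to the iron genes. The groups did not overlap for 1 probe as higher, a ferritin heavy chain probe, beside 1.98% of all probes, and for 1 as lower, an Ireb2 probe, beside 23.0%, or 2 of 14 in either direction beside 24.9%. The 14 probes were chosen with results of these data known, so these shares are descriptions. The median log2 signal of the tested probes ran from 7.18 to 7.31 in knockout arrays and from 7.35 to 7.55 in wild type arrays. The median signal of all probes on the array overlapped between the groups. Changes are given as measured.

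**Figure D1:**
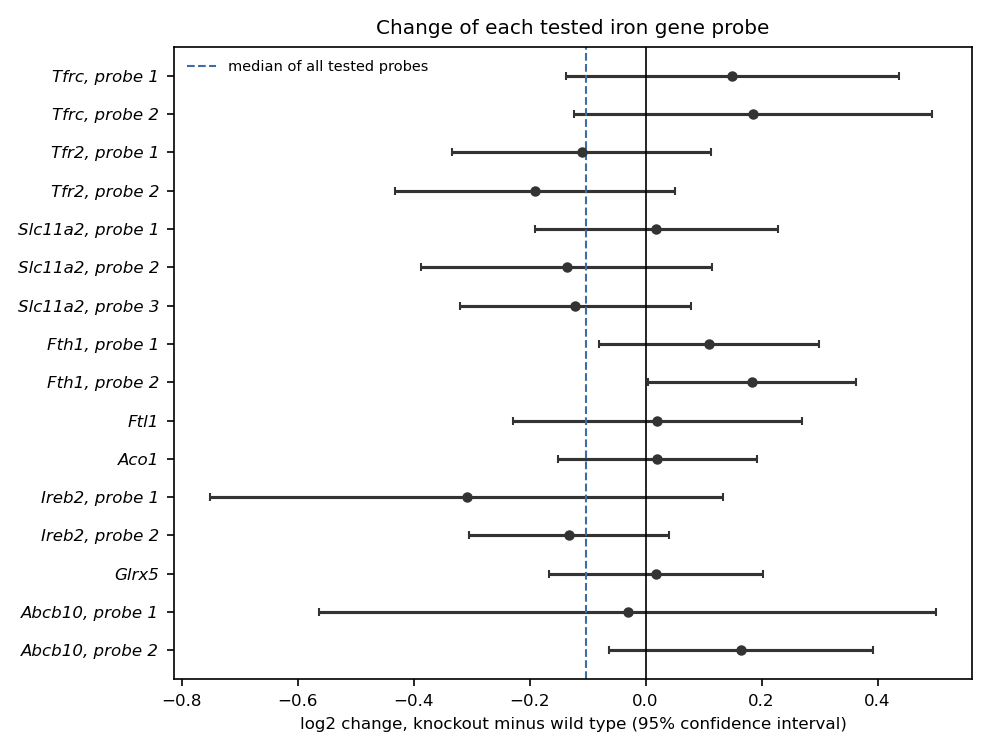
Log2 change, knockout minus wild type, of the 14 tested probes and of both Trfr2 probes (points), with 95% confidence intervals from limma (bars); the dashed line marks the median of all tested probes, -0.10. The intervals of 15 of the 16 probes include 0, and that of Fth1 probe 2 begins just above it.

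Tfrc encodes transferrin receptor 1, also called CD71, the main entry of transferrin iron into erythroblasts. Its brighter probe, ILMN_2619848, read 11277, 10183 and 11520 in wild type replicates 1, 2 and 3 and 13182, 10116 and 13547 in knockout replicates 1, 2 and 3. Knockout replicates 1 and 3 lay above every wild type mouse and knockout replicate 2 below every one, so the groups overlapped. Wild type averaged 10993 ± 712 and knockout 12282 ± 1884 (SD, n = 3 each). The log2 change was 0.15 (SE 0.12, limma adjusted p = 0.522), and its 95% confidence interval ran from 0.91 to 1.35 as a fold. The second probe, ILMN_2860804, read 9797, 9228 and 9217 in wild type and 12003, 8601 and 11856 in knockout mice. There too knockout replicates 1 and 3 lay above all wild type mice and knockout replicate 2 below them. Its log2 change was 0.18 (SE 0.13, limma adjusted p = 0.465).

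Knockout replicate 2 stood apart from the other knockout mice at both receptor probes. Without it the log2 change was 0.28 at the first probe (limma adjusted p = 0.135) and 0.34 at the second (0.0842). The first probe fell to 0.093 and 0.073 when knockout replicate 1 or 3 was dropped and to 0.096 when wild type replicate 2 was. It was at 0.17 and 0.18 without wild type replicate 1 or 3. The second probe was at 0.10 without knockout replicate 1 and 0.11 without knockout replicate 3. With knockout replicate 2 and wild type replicate 3 both left out, an alternative added after seeing the data for the pair of arrays of lowest weight, the values were 0.32 and 0.33 (limma adjusted p = 0.0766 and 0.0585). In knockout replicate 2 the monocyte and macrophage markers summed to 9925, against 4008 and 4404 in the other knockout mice, and the neutrophil markers to 26614, against 14965 and 20134. Wild type replicate 3 had the highest sums of all mice, 21033 and 51116, and read 11520 and 9217 at the first and second receptor probe. A relation between these sums and the receptor signal was not tested. The animal numbers in the titles fall in a 900 and an 1100 series, each holding mice of both genotypes. Within the 900 series, 1 wild type and 2 knockout mice, the first probe differed by 0.03, and within the 1100 series, 2 wild type mice and 1 knockout mouse, by 0.32 on the log2 scale. The labels do not say what these series stand for.

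Of 11563 other genes, the 3 whose log2 deviations over the 6 arrays lay nearest to those of Tfrc were Slfn14, an endoribonuclease gene, at a Euclidean distance of 0.11, the ribosomal protein gene Rpl22l1 at 0.12 and the neutral amino acid transporter gene Slc1a5 at 0.13, where the median distance was 0.56. Slfn14 read 215, 202 and 213 in wild type and 242, 190 and 269 in knockout mice, again with knockout replicate 2 lowest of all. With 6 arrays this nearness is a description only.

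Tfr2 encodes transferrin receptor 2, which binds transferrin and, in erythroid cells, associates with the erythropoietin receptor. Under the symbol Trfr2 its brighter probe, ILMN_2450491, read 583, 516 and 587 in wild type and 476, 572 and 516 in knockout mice. The groups overlapped, and the log2 change was -0.11 (SE 0.10, limma adjusted p = 0.543). The second probe read 202, 200 and 219 in wild type and 178, 162 and 207 in knockout mice, a log2 change of -0.19 (SE 0.10, limma adjusted p = 0.351). Knockout replicate 3 lay inside the wild type range and the other knockout mice below it. The brighter probe lay below 0 as measured but at 0.06 after quantile normalization and after centring each array on the tested probes, so its direction depends on the scaling.

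Steap3 encodes the ferrireductase that reduces iron in the endosome, and Slc11a2 the divalent metal transporter DMT1, which exports it to the cytosol. The probe named Steap3 was undetected on all 6 arrays, with signals from 87.5 to 99.1, close to the median of undetected probes, 86.7 to 89.5 by array. The probe under 1010001D01Rik was detected in 1 of 3 wild type and 0 of 3 knockout mice, with signals from 92.9 to 101. Neither was tested, and no level of Steap3 can be given from these arrays.

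Slc11a2 had 3 tested probes. The brightest, ILMN_2665063, read 508, 512 and 498 in wild type and 563, 459 and 520 in knockout mice. The wild type mice were close together and the knockout mice lay on both sides of them. The log2 change was 0.02 (SE 0.09, limma adjusted p = 0.926). The second probe read 467, 477 and 544 in wild type and 507, 448 and 401 in knockout mice, and the third 154, 137 and 156 against 144, 128 and 137. Their log2 changes were -0.14 and -0.12 (limma adjusted p = 0.506 and 0.459), and both lay above 0 after quantile normalization or centring. The changes of the first and second probe differed by 0.15 on the log2 scale (exact two-sided permutation p = 0.4 over the 6 mice). Slc11a2 makes transcripts with and without an iron-responsive element, and which of them each probe reads was not analysed here.

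**Figure D2:**
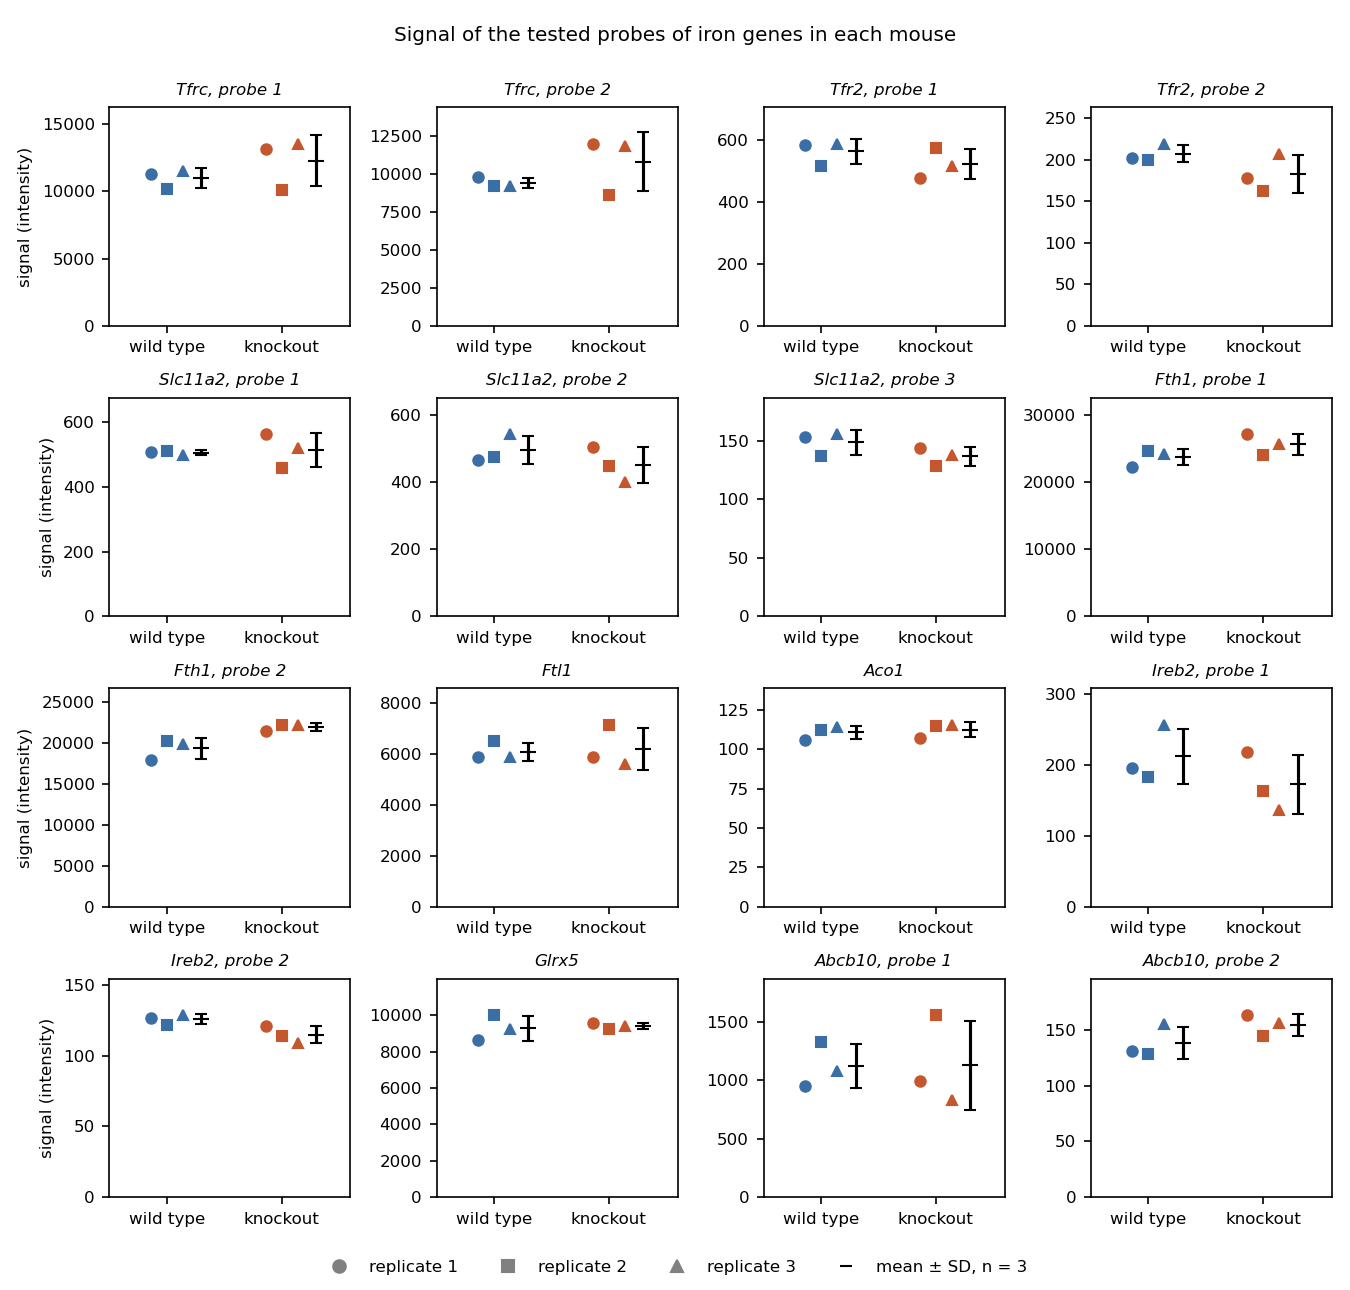
Signal of each tested probe on a linear intensity axis from 0, in wild type (blue) and knockout (orange) mice; circles, squares and triangles are replicates 1, 2 and 3, and bars give the mean ± SD (n = 3). For Tfrc knockout replicates 1 and 3 stand above the wild type mice, and for Fth1 probe 2 all 3 knockout mice do.

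Fth1 and Ftl1 encode the heavy and light subunits of ferritin, the protein shell that stores iron; the heavy chain oxidises the iron as it enters. For Fth1 the probe ILMN_2876071 read 17890, 20224 and 19779 in wild type and 21383, 22106 and 22174 in knockout mice. All 3 knockout values lay above all 3 wild type values. Wild type averaged 19298 ± 1239 and knockout 21888 ± 438 (SD, n = 3 each), a log2 change of 0.18 (SE 0.08, limma adjusted p = 0.258, the lowest among the 14 probes). An exact permutation of the mice, two-sided, gave p = 0.1, its lower limit with 3 mice in each group. The brighter Fth1 probe, ILMN_2876066, read 22262, 24624 and 24181 in wild type and 27071, 24013 and 25600 in knockout mice, where knockout replicate 2 lay inside the wild type range. Its log2 change was 0.11 (SE 0.08, limma adjusted p = 0.479). Both probes lay above 0 in all alternatives run, between 0.02 and 0.36 on the log2 scale, and 0 of these reached an adjusted p under 0.05. The filters on dim probes, the intensity trend, the replicate block and the series matrix values cannot move the log2 change. Their sign was therefore fixed in advance.

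The brighter Ftl1 probe, ILMN_1229517, read 5894, 6510 and 5891 in wild type and 5875, 7160 and 5606 in knockout mice. Knockout replicate 2 was the highest of the 6 mice and knockout replicate 3 the lowest. Wild type averaged 6098 ± 357 and knockout 6214 ± 830 (SD, n = 3 each), with a log2 change of 0.02 (SE 0.11, limma adjusted p = 0.931). The 95% confidence interval ran from 0.85 to 1.21 as a fold. The other Ftl1 probe was detected in 1 of 3 mice of each genotype and was not tested. Ferritin genes have near-identical processed copies in the genome, and whether these probes also read such copies was not analysed here.

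Only 1 member probe, the dimmer of 2 for the heavy chain, was higher with no overlap. The brighter heavy chain probe and the tested light chain probe overlapped between the groups, and the 2 genes were not compared in a test. Because of that 1 probe, the sequences just before the starts of the 2 ferritin subunit genes are shown. They are 100 bases from RefSeq (GRCm38.p6), 5′ to 3′ on the strand of the gene, at chr19:9982546-9982645 on the plus strand for the downstream of 2 annotated Fth1 starts and chr7:45459887-45459986 on the minus strand for Ftl1. Capitals mark the letters ATTGG, the reverse complement of the CCAAT box, which is bound by the factor NF-Y.
Fth1: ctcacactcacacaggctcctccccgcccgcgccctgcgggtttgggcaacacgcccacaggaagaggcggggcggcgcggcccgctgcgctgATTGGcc
Ftl1: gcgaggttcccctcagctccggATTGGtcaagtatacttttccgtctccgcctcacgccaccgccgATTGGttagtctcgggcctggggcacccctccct
In the 250 bases before the start, CCAAT was found on either strand 1 time at the downstream Fth1 start and not at the upstream one. The upstream Fth1 start holds TATAA on the opposite strand, 123 bases before the start. TATAA was also found at 1 of the 2 starts of Tfrc, on the strand of the gene and 172 bases before the start. This run occurs in 22.8% of 32851 such windows over all genes. CCAAT was found 2 times for Ftl1, 4 times for Glrx5, and 1 time at 1 of the 2 starts of Tfrc, of the 3 of Tfr2 and of the 4 of Steap3, and in 33.8% of all windows. The GATA letters AGATAA and TGATAA, also searched on both strands, were found at 1 start of Steap3 (AGATAA) and 1 start of Tfr2 (TGATAA) and not for the ferritin genes, Tfrc, Aco1, Ireb2, Glrx5 or Abcb10. They occur in 9.99% and 7.94% of windows. No start of Slc11a2 was among the windows searched for the member genes. A match is a run of letters and not a measured binding site.

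Aco1 and Ireb2 encode the iron regulatory proteins IRP1 and IRP2. IRP1 turns into a cytosolic aconitase when it carries an iron-sulfur cluster, whereas IRP2 is degraded when iron is plentiful. The Aco1 probe, ILMN_1216382, lay near background, at 106, 112 and 114 in wild type and 107, 115 and 116 in knockout mice. The ranges nearly coincided, and the log2 change was 0.02 (SE 0.07, limma adjusted p = 0.898). So close to background a difference between the groups may not be detectable.

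The brighter Ireb2 probe, ILMN_1225719, read 196, 183 and 257 in wild type and 219, 163 and 136 in knockout mice. Knockout replicates 2 and 3 lay below every wild type mouse and knockout replicate 1 among them. The log2 change was -0.31 (SE 0.19, limma adjusted p = 0.404), farthest from 0 among the 16 tested probes. It was -0.06 within the 900 series and -0.67 within the 1100 series, and it was -0.16 without wild type replicate 3 and -0.15 without knockout replicate 3. The second Ireb2 probe, ILMN_3161612, read 127, 122 and 128 in wild type and 121, 114 and 109 in knockout mice, so that the groups did not overlap. Its log2 change was -0.13 (SE 0.07, limma adjusted p = 0.366), which is -0.03 relative to the median of all tested probes and 0.04 after centring on the tested probes.

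Glrx5 encodes the mitochondrial monothiol glutaredoxin that passes on iron-sulfur clusters, and in zebrafish its loss blocks heme synthesis through IRP1. Its probe, ILMN_1217767, read 8612, 9991 and 9255 in wild type and 9541, 9235 and 9382 in knockout mice. All knockout values lay within the wild type range. Wild type averaged 9286 ± 690 and knockout 9386 ± 153 (SD, n = 3 each), and the log2 change of 0.02 (SE 0.08, limma adjusted p = 0.917) had a 95% confidence interval from 0.89 to 1.15 as a fold.

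Abcb10 encodes an ABC transporter of the inner mitochondrial membrane that is induced during erythroid maturation and binds the iron importer mitoferrin 1. Its brighter probe, ILMN_1218457, read 954, 1328 and 1080 in wild type and 995, 1555 and 828 in knockout mice. Knockout replicate 2 was the highest of the 6 mice and knockout replicate 3 the lowest, so the knockout SD of 381 (n = 3) was larger than that of wild type, 190 (n = 3). The log2 change was -0.03 (SE 0.23, limma adjusted p = 0.952). It was -0.29 when knockout replicate 2 was left out and 0.16 when knockout replicate 3 was. The second probe read 131, 128 and 155 in wild type and 163, 144 and 156 in knockout mice, a log2 change of 0.16 (SE 0.10, limma adjusted p = 0.385). In knockout replicate 2 the brighter probe stood highest and the second probe lowest of the knockout mice.

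**Figure D3:**
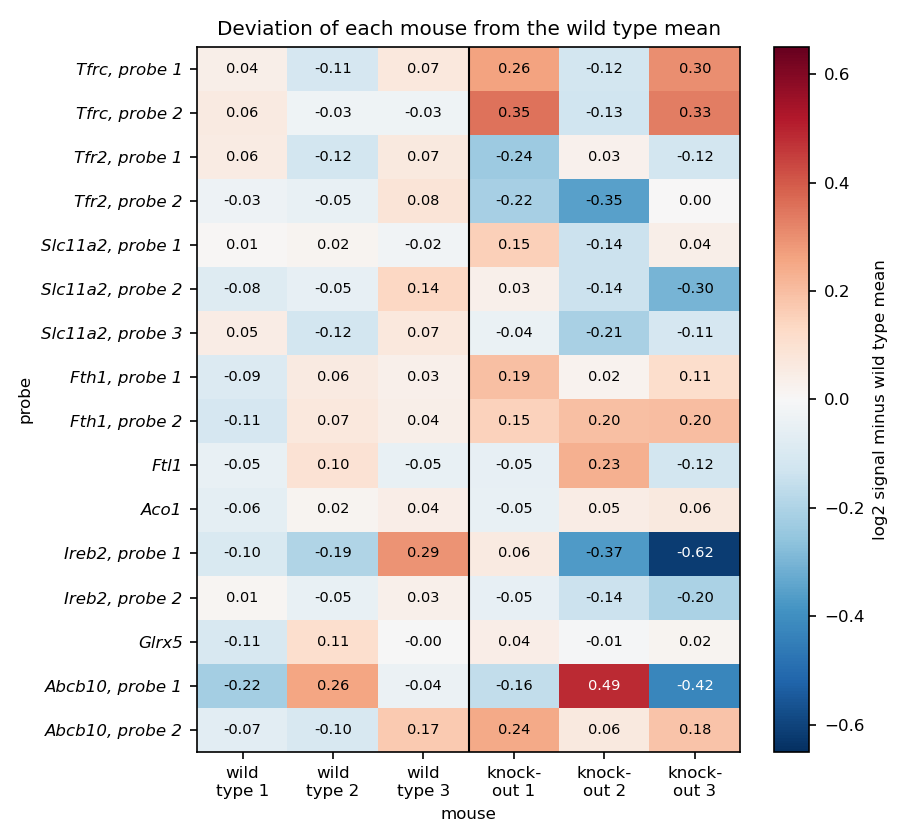
Log2 signal of each mouse minus the wild type mean, for the 14 tested probes and both Trfr2 probes (rows) in the 6 mice (columns); red is above and blue below that mean. Knockout replicate 2 stands apart from the other knockout mice at Tfrc (-0.12 and -0.13), Ftl1 (0.23) and the brighter Abcb10 probe (0.49).

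The probes of a gene differed in sign for 2 of the 6 genes with more than 1 tested probe, Slc11a2 and Abcb10. The exact two-sided permutation p of the difference between their probes ran from 0.2 to 0.6, and with 3 mice in each group it cannot go below 0.1, so whether the probes differ is not settled. The median over the 8 genes of the deviation from the wild type mean was 0.05, 0.0078 and 0.03 in knockout replicates 1, 2 and 3 and -0.08, 0.04 and 0.01 in wild type replicates 1, 2 and 3, so the groups overlapped.

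Other iron genes were read from lists of import, mitochondrial iron, iron-sulfur cluster assembly, chaperones and export, sensing, and transcripts with an iron-responsive element. Of 70 genes in these lists 48 were tested, 36 of them below 0 and 12 above, beside 9391 below 0 of all 11564 tested genes, with a median log2 change of -0.15 beside -0.11 over all tested genes. None passed at its brightest matched probe (0 of 48 in limma). Without adjustment, 10 were lower and 1 was higher at p under 0.05, beside 2150 and 150 of all 11564 tested genes. The groups did not overlap for 11 as lower and 2 as higher, beside 2681 and 233 of all tested genes. The shares of lower genes lie near those of all tested genes.

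Among import genes, with 8 tested and a median of -0.18, Hfe, which encodes a partner of the transferrin receptors, read 140, 141 and 180 in wild type and 108, 139 and 104 in knockout mice. Its log2 change was -0.39 (SE 0.14, limma adjusted p = 0.220). For mitochondrial iron, with 8 tested and a median of -0.14, the values were -0.31 for Slc25a28, which encodes mitoferrin 2 (limma adjusted p = 0.259), and -0.21 for the inner membrane transporter gene Abcb8 (0.205). Slc25a37, the mitoferrin 1 gene of erythroid cells, read under the symbol Mscp, was at -0.10. A probe under the symbol Mscp-pending, which the match by symbol and synonym did not take in, was at -1.95 (limma adjusted p = 0.000614). Its groups did not overlap, as lower, which held for 23.0% of all tested probes, and it is among the 14 probes called over the whole array. Which transcript this probe reads was not analysed here, so its value is not taken as a change of mitoferrin 1. The value farthest from 0 in this list was above it, at 0.38 for Fam210b, a mitochondrial membrane protein gene read as 2010011I20Rik (limma adjusted p = 0.225), with overlapping groups.

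Iron-sulfur assembly had 18 tested genes and a median of -0.08. Ndor1, a reductase gene of the cytosolic pathway, was at -0.32, the cytosolic scaffold gene Nubp2 at -0.27 and the ferredoxin reductase gene Fdxr at -0.19 (limma adjusted p = 0.219, 0.242 and 0.240). Fdxr lay near background, with signals of 123, 122 and 118 in wild type and 106, 112 and 100 in knockout mice. The 2 genes that were higher with no overlap are in this list, the co-chaperone gene Hscb at 0.11 and the cluster maturation gene Iba57, read as A230051G13Rik, at 0.18 (limma adjusted p = 0.454 and 0.275). Genes of chaperones, export and heme handling had 9 tested members and a median of -0.18. Flvcr1, a heme exporter gene read under Mfsd7b, had signals of 299, 277 and 340 in wild type and 228, 277 and 213 in knockout mice, a log2 change of -0.35 (SE 0.12, limma adjusted p = 0.206). For sensing only 2 of 8 genes were tested. Fbxl5, which encodes the iron-sensing ubiquitin ligase subunit that leads IRP2 to degradation, was at -0.21 (limma adjusted p = 0.252) and undetected in 1 of 3 knockout mice. It too lay near background, at 107, 109 and 121 in wild type and 91, 102 and 99 in knockout mice. Of the other transcripts with an iron-responsive element 4 were tested, with a median of -0.18. Among them Alas2, the first enzyme of heme synthesis in erythroid cells, was at -0.02 (limma adjusted p = 0.917).

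**Figure D4:**
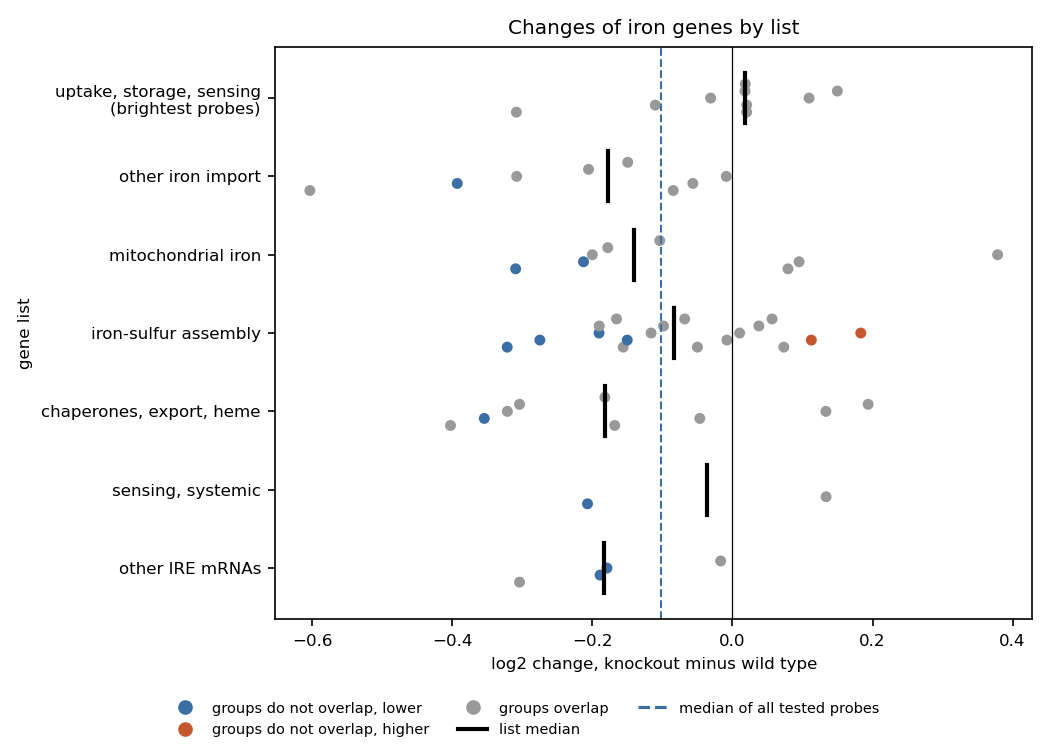
Log2 change, knockout minus wild type, of the brightest tested probe of each gene (points), for the iron uptake, storage and sensing genes with Tfr2 and for the other lists of iron genes; black bars are list medians, the dashed line is the median of all tested probes, and colour marks groups that do not overlap. The medians of the other lists lie between -0.18 and -0.04, and that of the first row is 0.02.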

How the data were processed

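RNA of Ter119-positive bone marrow cells was extracted with Trizol and made into labelled cRNA for Illumina bead arrays, per the labels' protocols. The table deposited by the authors holds, per the file headers, an average signal (intensity, linear scale) and a detection p-value per probe and array; its name calls the values normalized, and the method, the scanner software and any background correction are not given in the sources used here. The deposited series matrix held identical intensity values for all 45281 probes. Not used were 2 lines that hold no values; a further 58 probes, with symbols turned into dates or numbers, have no gene name here.

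Intensities were log2 transformed. A probe was tested if 3 or more of the 6 arrays gave it a detection p under 0.05. The genotypes were compared in limma (version 3.58.1, under R 4.3.3; lmFit, then eBayes, two-sided); p-values were adjusted by Benjamini-Hochberg across the 15743 tested probes, and 0.05 was the threshold. A gene is represented by its tested probe with the highest mean. List genes were matched by symbol or by a synonym that RefSeq (GRCm38.p6) gives to 1 gene only.

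The mice of a group are biological replicates per the series design; the number of arrays limits the precision. On simulated data with the fitted variances, over 15743 probes of this comparison, 64 of 100 probes shifted by 0.5 on the log2 scale and 97 of 100 shifted by 1 were recovered. There 11 probes that were not shifted were also called. These shares need not hold for the real arrays. On those, Diap3 at -1.12 did not pass (limma adjusted p = 0.0917). Of 12 tested neutrophil markers with a median of -1.23, 0 passed. Member genes, lists and tests were chosen with earlier results of these data known. Named genes were all members, and from each other list up to 4 genes with an unadjusted p under 0.05 and no overlap between groups, the 2 brightest markers of a list at most, the 3 genes nearest to Tfrc, and Diaph3; Slc25a37, Alas2, Fam210b, Hscb, Iba57 and Pax5 were added after their values were seen. A gene that this rule names is not reported here.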

Additional observations from a re-analysis of the deposited data

How the results depend on the processing

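No member probe passed under any of the alternatives run: quantile normalization, centring, normexp background correction, a pseudocount of 16, other filters on dim probes, an intensity trend, the replicate block, array weights, a term for animal number series, the series matrix values, and leaving out each mouse. The member median of 0.02 was 0.051 with quantile normalization and 0.19 with arrays centred on the tested probes, where the median of all tested probes was 0.01 and 0.07, and ran from -0.0074 to 0.070 with each mouse left out. The count of 14 probes called in all was 44 after centring, 58 with normexp background correction, 130 with an intensity trend, 190 with array weights, 8 with a series term, 5 with the replicate block and 1023 with both low-weight arrays (wild type replicate 3, knockout replicate 2) removed; with each mouse left out it ran from 8 (without wild type replicate 3, knockout replicate 1 or knockout replicate 3) to 187 (without knockout replicate 2), with 44 without wild type replicate 2. The cause was not tested. The replicate numbers only name the mice: deviations of equally numbered mice correlated at 0.22, -0.28 and -0.19 across probes, and not every mouse correlated best with its own number.

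Values near 0 changed sign. Quantile normalization turned the brighter Abcb10 probe to 0.078, Tfr2 to 0.059 and the dimmer Slc11a2 probes to 0.035 and 0.045, and centring turned the same probes to 0.14, 0.065, 0.039 and 0.054 and the dimmer Ireb2 probe to 0.043. The mean of a gene's probes gave 0.067 for Abcb10 and -0.080 for Slc11a2. Ftl1 was at -0.031 with array weights, -0.0028 with a series term and -0.11 without both low-weight arrays. With each mouse left out Abcb10 ran from -0.29 to 0.16, Aco1 from -0.011 to 0.055, Ftl1 from -0.086 to 0.090, Glrx5 from -0.035 to 0.072 and the brightest Slc11a2 probe from -0.050 to 0.10. Signal over background limits Aco1, Steap3, Fdxr, Fbxl5 and the dimmer probes of Ftl1 and Ireb2.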
